A study of Rattus norvegicus with 6 samples.

Results

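Cysteine transfer RNA with the anticodon GCA (Cys-GCA) was followed as fragments in small RNA from AR42J cells, an established line from the rat exocrine pancreas. The tested cells received 200 µM sodium taurocholate, a bile salt, for 30 min (3 libraries), and their controls were untreated cells of the same line (3 libraries). All 6 libraries were prepared alike, with end repair and removal of m1A and m3C methyl groups before ligation, per the labels' protocols. The labels do not say whether the replicates were separate cultures, so p-values measure only how far these libraries spread, which can be a technical matter. Members were the reads whose mature-tRNA alignments all lay on nuclear genes named CysGCA. They were thus selected on where reads aligned in these same libraries. They comprised 3075 of 67949 tRNA read sequences, on 40 of 400 nuclear mature tRNA references. Acinar miRNAs were checked against the cell type label: miR-216a, miR-216b and miR-217 had at most 4 reads in any library, so these defining markers were at or near 0. miR-122 of liver had 6.88 to 26.7 CPM (counts scaled to the library total, here of miRNA precursor reads), and miR-451 of red blood cells 32.5 to 1148. In replicates 1, 2 and 3, miR-451 had 700, 123 and 1875 unscaled reads with taurocholate, and 587, 137 and 3204 untreated. The part of both miRNAs in the results was not tested.

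A tRNA carries its amino acid on a CCA tail at the 3′ end and reads a codon with the anticodon in its middle loop. Cells cut tRNAs into fragments, many of them in the anticodon loop under stress, and others in the D or T loop. In the usual naming, a tRF-3 is a short piece of the 3′ end, a tRF-5 a short and a tiRNA-5 a long piece of the 5′ end, and an i-tRF a piece of the inside. Here tRF-5 had at most 30 nt and tiRNA-5 at least 31 nt, and an end counted as reached within 3 nt.

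The gene copies are shown because they differ at few bases, and reads that cover those bases can be sorted into broad kinds of copies. Few reads can be given to a single copy sequence. The mature Cys-GCA tRNA had 75 bases, with the D loop at bases 14 to 20, the anticodon at 33 to 35, the T loop at 53 to 59 and CCA at 73 to 75. Sequences were spelled from the alignments with T for U, and capitals mark bases that differ from the first. The first matched 126935 reads and the copies with T50C 126924, and 0 reads matched the first alone. Being first thus does not make it the main source of reads. A change such as T50C gives the base of that first sequence, its position (1 being the first base, 5′ to 3′) and the base of the other copy or read. The reference names put 31 of the 40 copies on chromosome 4, 5 on chromosome 10, 2 on chromosome 8 and 1 each on chromosomes 6 and 14. Chromosome starts and ends, and the genome build, were not given in these sources.
Copy matched by most reads (1 copy, chromosome 10): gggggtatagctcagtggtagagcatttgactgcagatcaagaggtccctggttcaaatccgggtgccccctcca
Copies with T50C (4 copies, chromosomes 10 and 4): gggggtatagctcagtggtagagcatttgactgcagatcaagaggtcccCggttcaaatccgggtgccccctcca
Copies with G62A (2 copies, chromosomes 6 and 8): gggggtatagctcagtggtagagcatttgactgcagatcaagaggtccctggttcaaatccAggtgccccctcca
Copies with T16G and G62A (21 copies, chromosomes 4 and 8): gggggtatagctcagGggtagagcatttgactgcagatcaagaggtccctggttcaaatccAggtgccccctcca
Copies with T6C, T16G and G62A (3 copies, chromosome 4): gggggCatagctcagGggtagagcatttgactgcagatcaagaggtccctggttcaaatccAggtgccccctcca

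The reads that carry the results are shown next, named by their first and last base in the tRNA, with capitals at the anticodon and the CCA tail. They are the most abundant read of each main kind, the form 1 base short at the 3′ end, and a longer internal read.
3′ read 59-75: tccgggtgccccctCCA
3′ read 58-75: atccgggtgccccctCCA
3′ read 59-74: tccgggtgccccctCC
3′ read 58-75 with C68T: atccgggtgctccctCCA
internal read 16-32: tggtagagcatttgact
internal read 13-32: cagtggtagagcatttgact
internal read 16-34: tggtagagcatttgactGC
internal read 16-39: tggtagagcatttgactGCAgatc

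Libraries held 338310, 254998 and 306389 tRNA reads with taurocholate, and 193750, 348451 and 229717 untreated. Cys-GCA gave 23574, 20031 and 26457 of them with taurocholate, and 18294, 29377 and 20668 untreated. The libraries numbered 1 stood apart in mismatched last G: 32.98% of Cys tRF-3 reads ended in it in taurocholate 1 and 11.1% in untreated 1, against 1.83% to 2.68% in the other 4. A mismatched last T was found in 4.40%, 7.65% and 8.34% of Cys tRF-3 reads with taurocholate, and 13.5%, 9.33% and 10.3% untreated. These groups were apart, as they were for the rarer last A, also lower with taurocholate, while last C and last G overlapped. The part of such mismatches in the shares of ends over all reads was not tested. Error-free reads made up 50.0%, 63.3% and 63.6% of Cys reads with taurocholate, and 56.7%, 65.3% and 63.3% untreated. Reads at the upper length limit of 51 nt made up 1.19% to 12.6% of tRNA reads, and at most 0.008% of Cys reads.

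Cys-GCA took 6.97%, 7.86% and 8.64% of tRNA reads with taurocholate, and 9.44%, 8.43% and 8.997% untreated. The groups overlapped, with a difference of -1.14 percentage points (two-sided exact permutation test, p = 0.2; 0.1 is the smallest p that 3 against 3 libraries allow). It was -0.71 without taurocholate 1 and -0.47 without both libraries numbered 1. With the 51 nt reads left out of the totals it was -0.997, and the groups were then apart (exact permutation p = 0.1). Within the libraries, 53.9% ± 2.70 of Cys reads were tRF-3 with taurocholate and 56.1% ± 7.26 untreated (SD, n = 3 each). i-tRF made up 44.3% ± 2.65 with taurocholate and 41.9% ± 7.20 untreated, so both large classes overlapped between the groups (exact permutation p = 0.8 for each). The difference in the tRF-3 share, -2.24 percentage points, moved with single libraries: it was -6.43 without untreated 1, -0.17 without untreated 2, -0.12 without untreated 3, -1.32 without taurocholate 1 and -3.79 without taurocholate 3. The 5′ classes were small, at 1.75% ± 0.248 with taurocholate and 1.97% ± 0.159 untreated (exact permutation p = 0.3). tiRNA-3, the long 3′ pieces, numbered 50 reads in all 6 libraries.

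**Figure D1:**
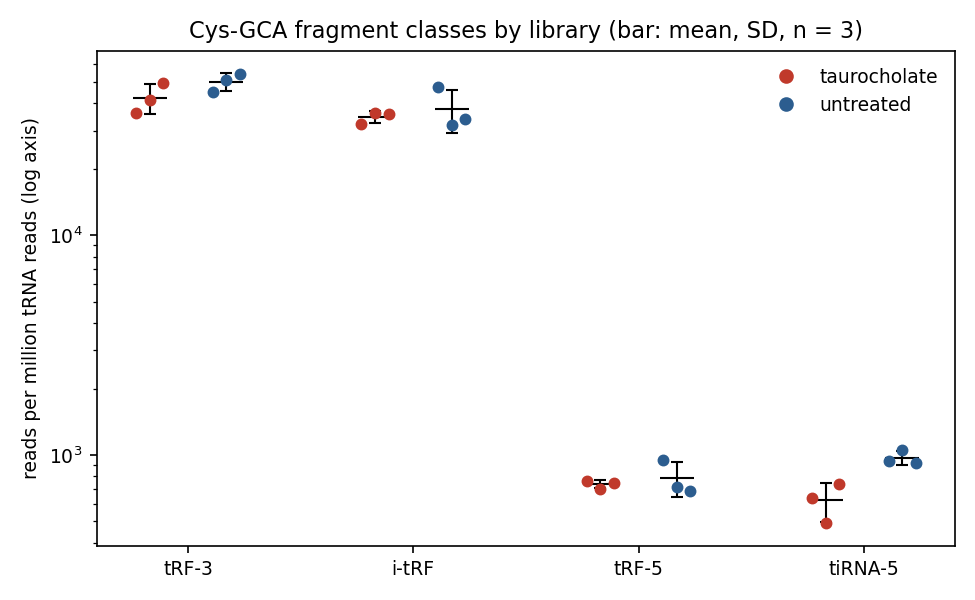
CPM of tRNA reads (log axis) of the 4 Cys-GCA fragment classes tested, by library, with the mean and SD as bars (n = 3 each). The tRF-3, i-tRF and tRF-5 points overlap between the groups, and the 3 taurocholate points of tiRNA-5 (490.2 to 738) lie below the 3 untreated ones (923 to 1053).

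None of the 4 Cys classes tested passed an adjusted p of 0.05 in edgeR's quasi-likelihood test over all 237 tsRNA features, where the share called was 0%. DESeq2's Wald test also called none of the 4. A pair of Cys features made of precursor reads, which are no mature fragments, were tested too: the log2 fold change was 0.17 for pre-tRNA (SE 0.52) and -0.12 for tRF-1 (SE 0.43), with an edgeR adjusted p of 0.918 each. tRF-3 Cys-GCA had 36272, 41349 and 49212 CPM of tRNA reads with taurocholate, and 45089, 50808 and 54323 CPM untreated. Its log2 fold change was -0.11 (SE 0.13, edgeR adjusted p = 0.782), and 2 SE to either side reached from -0.37 to 0.16. i-tRF Cys-GCA had 32000, 35973 and 35631 CPM with taurocholate, and 47365, 31703 and 34003 CPM untreated. Its log2 fold change was 0.02 (SE 0.19, edgeR adjusted p = 0.968; 2 SE from -0.35 to 0.39). tRF-5 Cys-GCA averaged 738 ± 32.1 CPM with taurocholate and 785 ± 143 CPM untreated (SD, n = 3 each). With TMM scaling its log2 fold change was 0.05 (SE 0.20, edgeR adjusted p = 0.918). The i-tRF and tRF-5 estimates turned negative, to -0.13 and -0.09, when scaled by library totals alone, so no direction is given for either.

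tiRNA-5 Cys-GCA, the long piece of the 5′ end, had 638, 490.2 and 738 CPM with taurocholate, and 945, 1053 and 923 CPM untreated. The 3 taurocholate values all lay under the 3 untreated ones, as for 13.9% of all features tested. No Cys class had its 3 taurocholate values on top, where 3.8% of all features did; 17.7% were apart in either direction. The log2 fold change was -0.51 (SE 0.20), with an edgeR p of 0.0332 before and 0.480 after adjustment. At an unadjusted p under 0.05, it was the 1 of 4 Cys classes, while 10.1% of all 237 features passed. Among the 24 tiRNA-5 features tested, 14 had a positive and 10 a negative log2 fold change (median 0.27), and 4 lay below Cys-GCA. For tRF-3 the median of 51 features was 0.14, and 5 lay below Cys-GCA. When an end had to be reached exactly (tolerance of 0 nt), tiRNA-5 Cys-GCA passed the edgeR test (log2 fold change -2.79, adjusted p = 0.0210), the single call among 237 features, or 0.422%. It then rested on 117 reads that start at base 1. Reads of any class that start at base 1 numbered 13, 6 and 20 with taurocholate, and 26, 57 and 46 untreated. Of these 168 reads, 149 had a mismatch in the first 5 bases and 10 were free of errors, and the part of these mismatches in the difference was not tested.

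The 3′ fragments formed a narrow set that began at the end of the T loop. A start at base 59 took 68.6% ± 2.25 of Cys tRF-3 reads with taurocholate and 69.4% ± 0.135 untreated (SD, n = 3 each). Starts at base 58 took 25.4% ± 2.46 with taurocholate and 24.8% ± 0.176 untreated, and starts at base 60 4.97% ± 0.317 and 4.95% ± 0.0669, again taurocholate before untreated. Groups overlapped at all 3 starts. The read 59-75 was the most abundant Cys read, with 11324, 16930 and 21065 CPM with taurocholate, and 15417, 21432 and 22127 CPM untreated. Its log2 fold change was -0.10 (SE 0.24, edgeR adjusted p = 0.847). Reads shorter than 16 nt are not in the files, so this 17 nt read lies just above the lower limit and shorter forms are not seen.

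**Figure D2:**
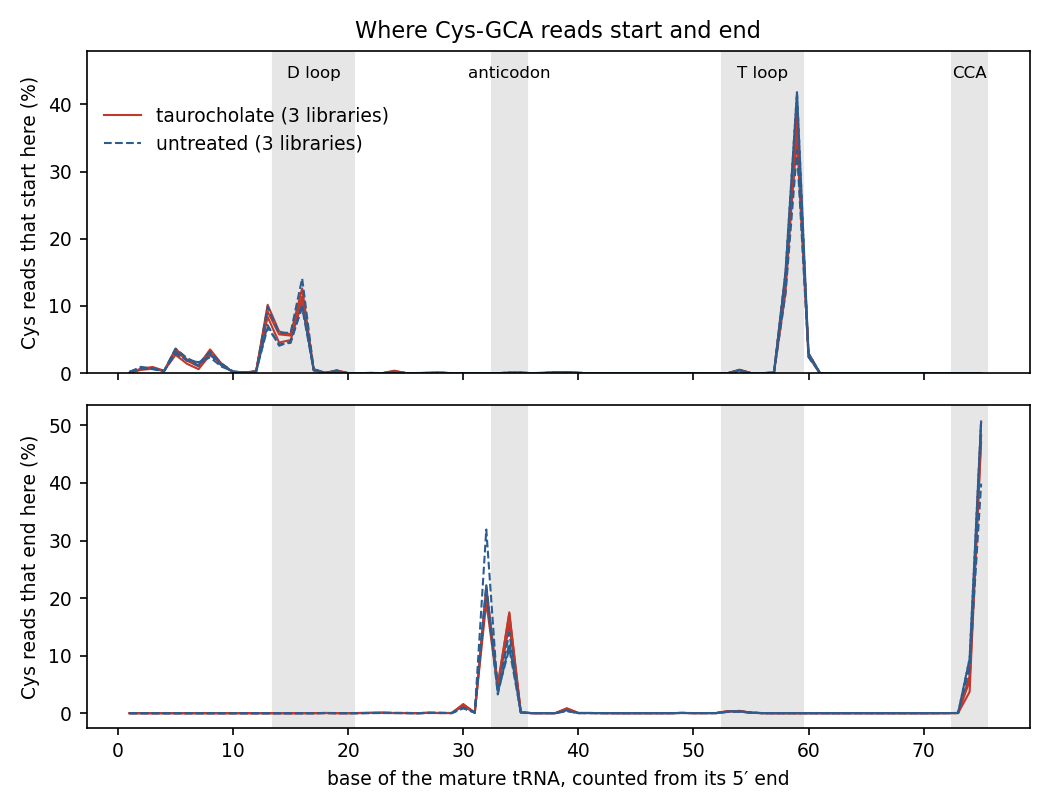
Percent of Cys-GCA reads that start (upper panel) or end (lower panel) at each base of the mature tRNA, 1 line per library. Starts gather at bases 13 to 16 and 58 to 59, ends at bases 32 to 34 and 74 to 75, and the solid taurocholate lines lie above the dashed untreated ones at ends 33 and 34 and under them at end 74. At end 32 the groups overlap in this unit, and untreated 1 stands apart there (31.9%) and at end 75 (39.9%).

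The share of 3′ reads that lacked the last A of the tail was lower in every taurocholate library than in any untreated one. Among error-free 3′ reads, 7.77%, 7.20% and 7.65% ended at base 74 with taurocholate, and 11.2%, 11.3% and 10.8% untreated, so the groups did not overlap. The difference was -3.56 percentage points (exact permutation p = 0.1). The read 59-74 had 1029, 1506 and 1828 CPM with taurocholate, and 2152, 2970 and 2921 CPM untreated, a log2 fold change of -0.72 (SE 0.22, edgeR adjusted p = 0.302). Its variant with C74T at the last base had 553, 1035 and 1423 CPM with taurocholate, and 2617, 2026 and 2359 CPM untreated (log2 fold change -1.09, SE 0.25, edgeR adjusted p = 0.302). DESeq2's Wald test called this variant with an adjusted p of 0.00384. Over all 3′ reads, mismatched ones included, the share ending at 74 was 9.68% ± 2.25 with taurocholate and 15.96% ± 0.483 untreated (SD, n = 3 each).

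Some other tRNAs showed the same order of the groups. In all other nuclear tRNAs together, 14.7% ± 0.946 of error-free 3′ reads were 1 base short with taurocholate and 18.0% ± 1.84 untreated (SD, n = 3 each; exact permutation p = 0.1, groups apart). Cys minus the others was -7.93, -7.36 and -6.18 percentage points with taurocholate, and -8.83, -6.41 and -5.52 untreated. This difference overlapped between the groups (exact permutation p = 0.9), and was below 0 in 6 of 6 libraries (exact sign-flip test, p = 0.03125, the smallest that 6 libraries allow). Taurocholate libraries lay below untreated ones in 10 of 18 anticodons with enough 3′ reads, or 55.6%; Cys-GCA is 1 of these 10. Tyr-GTA, the most read tRNA, overlapped, at 34.98% ± 3.08 with taurocholate and 39.7% ± 3.65 untreated, well above Cys. Ala tRNAs lay below Cys, at 6.18% ± 0.306 with taurocholate and 7.04% ± 0.159 untreated. A share below the pooled others was thus not particular to Cys. Cys tRF-3 averaged 17.2 nt ± 0.0206 with taurocholate and 17.1 nt ± 0.00893 untreated. They were shorter than the tRF-3 of the other nuclear tRNAs in 6 of 6 libraries, with a mean difference of -0.648 nt ± 0.0626 (SD, n = 6; exact sign-flip p = 0.03125). This length was not particular to Cys: Tyr-GTA tRF-3 averaged 17.17 nt ± 0.0639 with taurocholate and 17.04 nt ± 0.0639 untreated. Ala tRF-3 were longer, at 18.2 nt ± 0.0522 and 18.15 nt ± 0.0281, in that order. The groups were apart, taurocholate longer, in Cys, Tyr, Ala and all other nuclear tRNAs (exact permutation p = 0.1 each).

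**Figure D3:**
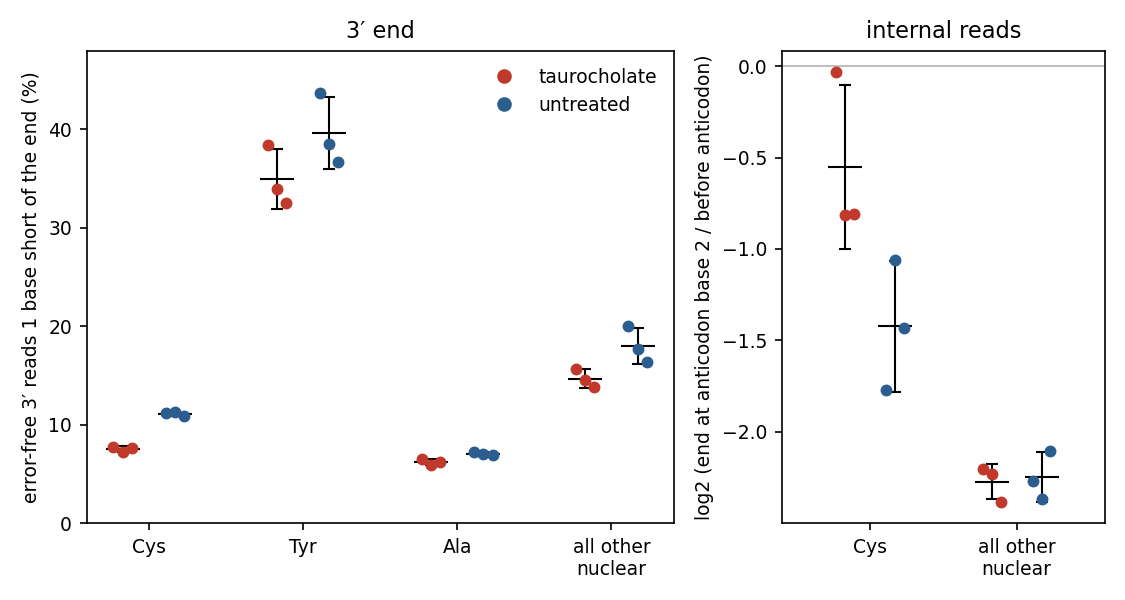
Left, percent of error-free 3′ reads that end 1 base before the end of the CCA tail. Right, log2 ratio of error-free internal reads that end at the second anticodon base to those that end before the anticodon, by library with mean and SD (n = 3 each). Taurocholate lies below untreated on the left in Cys, Ala and all other nuclear tRNAs, and above it on the right in Cys, where the other tRNAs overlap.

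Most internal fragments started around the first bases of the D loop, a smaller part further ahead of it. Most ended at the base before the anticodon or in it. Starts at bases 13 to 16 took 71.5% ± 3.73 of Cys i-tRF with taurocholate and 69.4% ± 2.004 untreated (SD, n = 3 each), and starts at bases 5 to 9 took 23.4% ± 3.59 and 25.4% ± 1.40, in that order. Ends at bases 32 to 34, from the base before the anticodon to its second base, took 92.0% ± 0.704 with taurocholate and 94.1% ± 1.18 untreated.

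The last base of these internal reads differed between the groups. Ends at base 32 took 45.2%, 43.8% and 44.2% of Cys i-tRF with taurocholate, and 60.7%, 53.1% and 55.5% untreated. Ends at base 34 took 37.5%, 37.4% and 36.9% with taurocholate, and 27.6%, 31.6% and 29.2% untreated. Ends at base 33 took 9.94%, 10.9% and 10.2% with taurocholate, and 7.01%, 8.31% and 9.24% untreated. At each of these ends no taurocholate library overlapped an untreated one, with a higher share of i-tRF at 33 and 34 and a lower one at 32. Such shares depend on one another and do not give the abundance of reads at an end. In percent of all Cys reads, the groups overlapped at end 32. Ends at 30 and 39, both rare, were also higher with taurocholate, at 3.002% ± 0.456 and 1.76% ± 0.207, against 2.04% ± 0.333 and 1.01% ± 0.256 untreated (SD, n = 3 each).

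**Figure D4:**
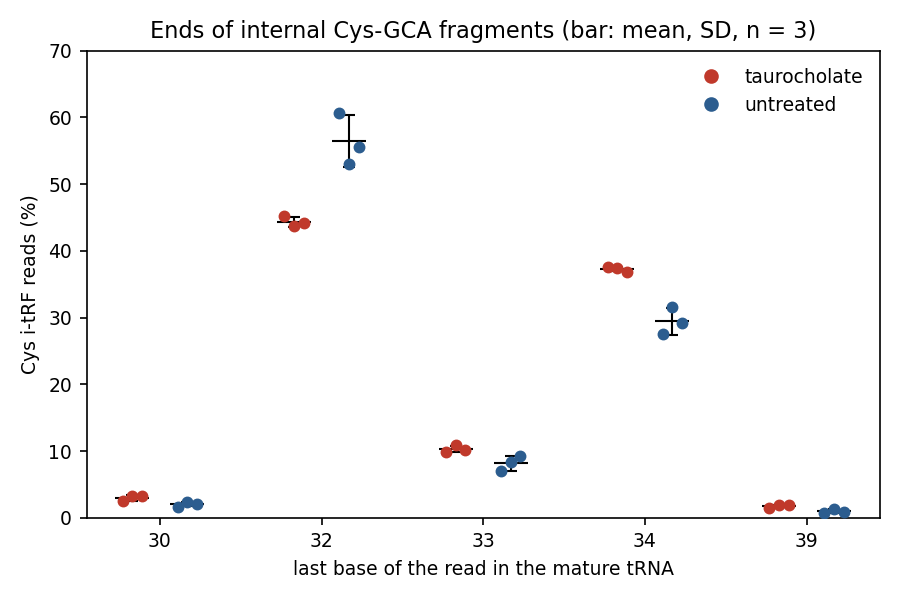
Percent of Cys-GCA i-tRF reads that end at bases 30, 32, 33, 34 and 39, by library, with the mean and SD as bars (n = 3 each). The taurocholate points lie below the untreated points at base 32 and above them at the 4 other ends.

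The log2 ratio of reads ending at 34 to reads ending at 32 was -0.27, -0.23 and -0.26 with taurocholate, and -1.14, -0.75 and -0.93 untreated. The difference was 0.69 (exact permutation p = 0.1). With error-free reads the ratio was -0.03, -0.81 and -0.81 with taurocholate, and -1.77, -1.06 and -1.43 untreated, a difference of 0.87. Without both libraries numbered 1 the difference was 0.60. The groups were apart for error-free reads starting at 13, at 14, at 15 and at 16, and overlapped for those starting at 5, at 8 and at the 5′ end. In other nuclear tRNAs the same ratio, placed by their own anticodon, was -2.27 ± 0.0957 with taurocholate and -2.25 ± 0.135 untreated (SD, n = 3 each; exact permutation p = 0.9). Cys minus the others was 2.17, 1.42 and 1.57 with taurocholate, and 0.50, 1.31 and 0.67 untreated, a difference of 0.89 (exact permutation p = 0.1, groups apart). Of the 4 anticodons with enough such reads, Cys-GCA was the 1 with taurocholate above untreated, or 25%. Glu-CTC, His-GTG and Lys-CTT overlapped. Lys-TTT, Gln-CTG and Arg-TCT, the anticodons most similar to Cys-GCA in fragment classes, were not among those compared, so whether they share this order was not tested. The end shares and the ratio were chosen after their values were seen. In all, 64 measures of Cys reads were compared, many of them overlapping, and the groups were apart in 25, or 39.1%. The smallest permutation p after Benjamini-Hochberg adjustment over the 64 was 0.256.

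Among single read sequences, 154 from Cys-GCA were tested, holding 91.0% of Cys reads, and none passed edgeR's adjusted p of 0.05, as none of the 2233 tested in all did (0%). DESeq2's Wald test called 6 of them, where it called 5.35% of the 823 sequences to which it gave an adjusted p. Without the filter on low counts edgeR called 4 of all 3075 Cys sequences, where it called 0.184% of 67949. At an unadjusted edgeR p under 0.05, there were 31 Cys sequences, 14 higher and 17 lower with taurocholate, and 14.1% of all sequences. The groups did not overlap for 35 of the 154, and for 17.4% of all sequences. The median log2 fold change was -0.01 for Cys and 0.03 for all.

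Sorted by their last base, the error-free sequences differed in sign, chosen as a grouping after the end shares were seen. Of 24 that end at base 32, 2 had a positive log2 fold change (median -0.39). Of 11 that end at base 33, 9 had a positive one (median 0.59), and of 15 that end at base 34, 14 did (median 0.39). Of all 154 Cys sequences tested, 76 had a positive one. These are largely the reads behind the end shares, in the same 6 libraries, so their signs restate those shares and are no separate support. The read 16-32 had 1747, 2965 and 2885 CPM with taurocholate, and 5430, 2996 and 3622 CPM untreated (log2 fold change -0.49, SE 0.26, edgeR adjusted p = 0.438). Untreated 1 was the highest library, and without it the log2 fold change was -0.20. The read 16-34 had 1995, 1773 and 1720 CPM with taurocholate, and 1533, 1578 and 1371 CPM untreated (log2 fold change 0.53, SE 0.27, edgeR adjusted p = 0.416). It was 0.25 without taurocholate 1 and 0.29 when scaled by library totals. The groups were apart for both reads, in opposite directions. The longer read 16-39, which passes the whole anticodon, had 174, 165 and 183 CPM with taurocholate, and 98.1, 100.4 and 69.7 CPM untreated. It was among the 3 sequences with the smallest p that were higher with taurocholate (log2 fold change 1.17, SE 0.30, edgeR adjusted p = 0.302). DESeq2's Wald test gave it an adjusted p of 0.0494. The other 5 of the 10 most abundant sequences had edgeR adjusted p-values of 0.556 or more. Their log2 fold changes were -0.32 for 13-32, -0.10 for 58-75, -0.12 for 59-75 with C68T, -0.01 for 58-75 with C68T and 1.35 for 59-75 with A75G. The value for 13-32 was -0.035 without untreated 1, and that for 58-75 was -0.0094 without taurocholate 1. The value for A75G was -1.34 without taurocholate 1, the library with most mismatched G ends.

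Reads ending in a mismatch at 32 or 34 were among those with the smallest p. The read 16-34 with C34A had 304, 463 and 460.2 CPM with taurocholate, and 274, 267 and 274 CPM untreated (log2 fold change 0.77, SE 0.20). The read 14-34 with C34A averaged 117 ± 17.1 CPM with taurocholate and 64.7 ± 6.46 CPM untreated (SD, n = 3 each; log2 fold change 1.05, SE 0.25). On the lower side, the read 17-32 with T32C had 14.8, 23.5 and 13.1 CPM with taurocholate, and 61.9, 60.3 and 47.9 CPM untreated (log2 fold change -1.53, SE 0.37). The read 5-32 with T32C and G at base 16 averaged 28.3 ± 9.46 CPM with taurocholate and 69.96 ± 6.58 CPM untreated (log2 fold change -1.15, SE 0.29). Each had an edgeR adjusted p of 0.302, and the groups were apart for each. Of the 6 sequences with the smallest p, 3 in each direction, 5 had a mismatch at their last base, and the part of such mismatches in their values was not tested.

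**Figure D5:**
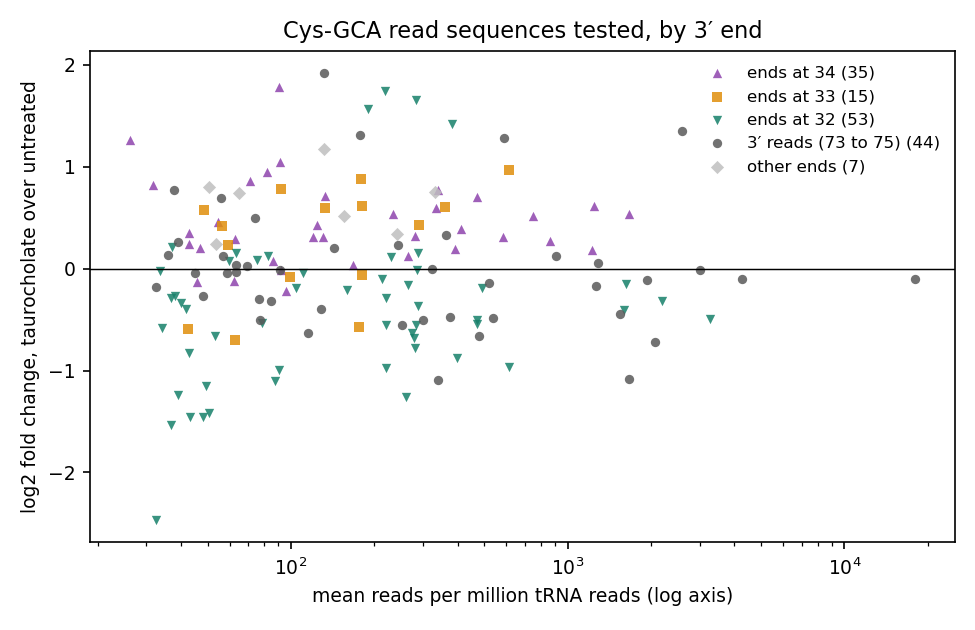
Log2 fold change, taurocholate over untreated, against mean CPM (log axis) of the 154 Cys-GCA read sequences tested, with 1 point per sequence and symbols by last base. Most points that end at 34 lie above 0, while most of those that end at 32 lie below it.

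The copies contributed unequally. Few reads told a single copy sequence from the rest: 0.400% ± 0.0690 of Cys reads with taurocholate and 0.450% ± 0.0691 untreated matched 1 of the 14 distinct sequences alone. The largest number, 287 reads, matched a copy on chromosome 4 with T16A and G62A, which took 48.9% ± 6.21 of them with taurocholate and 51.04% ± 13.2 untreated (SD, n = 3 each). The copies with T50C followed with 173 reads and those with T6C, T16G and G62A with 96. Among the rest, a copy with A7G, T16G, G23C and G62A and one with G5T and G62A had 7 reads each. The copy matched by most reads and the 21 copies with T16G and G62A had 0 reads of their own. A read can match 1 sequence alone only where no other copy shares its bases, so these counts do not rank the copies. A at base 16 averaged 0.439% of reads with taurocholate and 0.552% untreated, and the mismatch A22G 0.322% and 0.340%. The part of read errors in the 287 reads was not tested.

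At base 62, G is the rarer base among the genes and the common one among the reads. It stands in 7 of 39 copies read there, and was carried by 95.1% ± 0.874 of tRF-3 reads with taurocholate and 96.2% ± 0.132 untreated (SD, n = 3 each). The groups did not overlap, with a difference of -1.09 percentage points (exact permutation p = 0.1), or -0.64 without taurocholate 1. Counting each read sequence 1 time made it -5.12. At base 16, T stands in 9 of 40 copies and was carried by 87.7% ± 0.272 of reads with taurocholate and 86.9% ± 0.735 untreated. At base 50, T stands in 35 of 40 copies and was carried by 53.0% ± 4.47 of reads with taurocholate and 50.4% ± 1.39 untreated. Only 1138 reads covered base 50 over the 6 libraries, against 59077 at base 16 and 76777 tRF-3 reads at base 62. The value at base 50 thus speaks for few Cys reads.

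The base at 16 was mostly T in internal reads and mostly G in 5′ reads. G there, found in 30 of 40 copies, was carried by 9.04% ± 0.766 of i-tRF with taurocholate and 9.53% ± 0.392 untreated (SD, n = 3 each). In tRF-5 it was carried by 77.0% ± 5.47 with taurocholate and 76.5% ± 4.68 untreated. In tiRNA-5 it was carried by 84.7%, 90.4% and 84.5% with taurocholate, and 75.4%, 74.1% and 64.2% untreated. The groups did not overlap in tiRNA-5, with a difference of 15.3 percentage points (exact permutation p = 0.1), but did with error-free reads, where the difference was 8.385 percentage points (exact permutation p = 0.2).

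One internal mismatch was frequent, C68T in the 3′ part of the acceptor stem. It was carried by 8.28%, 16.5% and 14.3% of reads over base 68 with taurocholate, and 11.9%, 13.6% and 13.8% untreated, so the groups overlapped. Its share depended on the start of the read. Reads from base 58 carried it in 27.9% ± 8.22 with taurocholate and 28.3% ± 2.08 untreated, reads from base 59 in 6.70% ± 2.16 and 6.93% ± 0.735, and reads from base 60 in 22.02% ± 4.47 and 23.2% ± 0.637, each with taurocholate before untreated (SD, n = 3 each). It was found in 13.6% of reads with G at base 62 and in 0.491% of those with A, as means over the 6 libraries.

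Against the other tRNAs, Cys-GCA was number 3 in reads among 35 anticodons with at least 1000 reads. Its share of i-tRF, 43.1% over the 6 libraries, ranked number 10, against a median of 20.6% over anticodons, and its share of 5′ reads was 1.86%, against a median of 11.1%. Tyr-GTA, the most read, had 0.377% i-tRF and Ala tRNAs 0.425%, with 71.9% and 98.5% tRF-3. Cys minus all other nuclear tRNAs in the share of tRF-3 was 0.30, 6.97 and 6.52 percentage points with taurocholate, and -2.05, 13.3 and 11.01 untreated. It was positive in 5 of 6 libraries (mean 6.002, exact sign-flip p = 0.09375). The mean was 1.40 with error-free reads (exact sign-flip p = 0.531) and 2.698 without the 51 nt reads (exact sign-flip p = 0.375). By the summed difference of the class shares over the 6 libraries, the most similar anticodons were Lys-TTT (13.95 percentage points), Gln-CTG (21.4) and Arg-TCT (35.1).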

How the data were processed

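The authors deposited raw counts of reads: per the file headers, each line aligns 1 distinct read sequence, with its number of reads, to a tRNA or a miRNA precursor. Novoalign 2.07.11, cutadapt and FastQC are named in the submitters' processing notes, and no genome build is given in the sources used here. Reads were 16 to 51 nt with at most 1 mismatch. Per the file headers, read length and first and last base (other measures) were deposited too. Each read was counted 1 time per library. Mature references were spelled from the alignments, and a CCA end was found for 351 of 402. Reads that also matched other tRNAs, at most 2.23% of reads with a Cys alignment in any library, were left out. Features are a class and an anticodon set.

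Counts were fitted with edgeR 4.0.16 (TMM, filterByExpr, quasi-likelihood test, Benjamini-Hochberg adjustment over the whole table; SE from the F statistic), tested on simulated data, and with DESeq2 1.42.0. CPM use library totals without TMM factors. Single values were compared by exact permutation over libraries. Intervals cover counting error only: the 95% Wilson interval of the Cys share in taurocholate 1 was 6.88% to 7.05%. Members, lists and named sequences were chosen with earlier results of these data known. Named were every Cys feature tested, the 10 most abundant Cys sequences, the 3 smallest p each way among sequences averaging 10 CPM or more, and copies with at least 1% of single-copy reads. No pair of replicates agreed within sampling noise. miRNA counts served only for the check of the cell type and, for miR-451, to compare replicate numbers.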

Additional observations from a re-analysis of the deposited data

How the results depend on the processing

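Across the 14 summary results, 148 recomputed values kept their direction and side of the threshold of 0.05. Another 11 turned in sign, 7 lost and 1 gained a call, and 3 counts moved. The permutation tests between groups could not change side, as their smallest p is 0.1, or 0.2 with 1 library left out. For those results the count shows only a kept direction. Kept values could still shift in size: Cys minus other tRNAs in the tRF-3 share was 6.002 at first, 1.40 with error-free reads and 9.44 without both libraries numbered 1. Causes were not tested unless the alternative's construction gives them. Counting each read sequence 1 time gave 0.238 percentage points for the difference in the Cys share and -1.35 for Cys minus other tRNAs in the tRF-3 share. With a tolerance of 0 nt, the difference in the tRF-3 share of Cys reads was 1.45, Cys minus other tRNAs in that share 10.6 (exact sign-flip p = 0.03125), and 1 Cys feature was called, tiRNA-5 at -2.79. Among Cys read sequences DESeq2 called 6, where it called 5.35% of the 823 to which it gave an adjusted p. Without a filter, edgeR called 4 of 3075 Cys sequences, where it called 0.184% of 67949. DESeq2 gave -1.08 for the read 59-74 with C74T and 1.17 for the read 16-39. Leaving out 1 library at a time gave -1.99 to 0.277 percentage points for the share of tRF-3 starting at base 59, -4.08 to 7.61 for intact CCA tails and -9.82 to 1.84 for the largest copy. Cys minus other tRNAs in tRF-3 length was then -0.669 to -0.630 nt, and the exact sign-flip p of 0.0625 is the smallest that 5 libraries allow. Leaving out both libraries numbered 1, chosen after seeing the data like all measures of ends and of single bases, gave 1.27 for the largest copy and -0.675 nt for the length (exact sign-flip p = 0.125).

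Single log2 fold changes near 0 turned in sign. i-tRF was -0.13 with library totals, -0.062 with error-free reads and -0.11 with a tolerance of 0 nt, and ranged from -0.077 to 0.22 with 1 library left out. tRF-5 was -0.086 with library totals and -0.054 to 0.22 with 1 left out. With 1 left out, the read 59-75 ranged from -0.23 to 0.0052, its C68T form from -0.24 to 0.072 and its A75G form from -1.34 to 2.31. The read 58-75 with C68T ranged from -0.18 to 0.21. Without both libraries numbered 1, the reads 16-32, 13-32 and 16-34 were at -0.16, -0.015 and 0.25, the A75G form was at -0.44 and the read 58-75 with C68T at 0.063.

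Between libraries of the same replicate number, correlations of deviations were -0.20, 0.04 and 0.29, and not every library was closest to its own number. With 3 libraries per group these correlations cannot decide whether numbers pair the libraries. Both libraries numbered 1 had the most mismatched last G. In both groups, unscaled miR-451 reads were highest in the library numbered 3 and lowest in the library numbered 2. Whether libraries of equal number shared a batch was not tested. With the replicate block 0 Cys features and 0 Cys sequences were called, and tiRNA-5 was at -0.52 (edgeR adjusted p = 0.595). The log2 ratio of ends 34 to 32 was 0.69 with the replicate block (exact sign-flip p = 0.25, the smallest that 3 pairs allow). At 1 read per library, 2.87 to 5.16 CPM, single-copy reads and tiRNA-3 are too few to compare.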
